A study of Arabidopsis thaliana with 12 samples.

Results

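The response of 35S::HRE1 seedlings to hypoxia was read from 4 of the 12 ATH1 arrays of the series, 2 from air and 2 from hypoxia, over 13687 of 22746 probe sets. A probe set was tested where 2 or more of the 12 arrays showed an intensity of 15 or above, which 9059 did not. The arrays were chosen by title, while the filter read the intensities of all 12 arrays, those of hypoxia included. Arabidopsis seedlings of the accession Col-0 were 7 days old and had grown at 23 °C on medium with 30 mM sucrose under 12 h of light and 12 h of darkness. They then spent 4 h in darkness in 21% oxygen (air) or in 1% oxygen (hypoxia), and total RNA came from whole seedlings. 35S::HRE1 plants carry HRE1 behind the 35S promoter, which drives expression in most cells at all times. The 8 other arrays, wild type and 35S::HRE2 in the same 2 atmospheres, entered the fit and served for comparison. All 6 groups shared the age, the sucrose and the darkness. The labels call the 2 samples of a group biological replicates and do not say how many independent 35S::HRE1 lines were used.

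Plants that lose oxygen switch from respiration to fermentation, in which pyruvate decarboxylase and alcohol or lactate dehydrogenase regenerate the NAD+ that glycolysis needs. HRE1 belongs to the group VII ethylene response factors, transcription factors whose amino terminus marks them for destruction when oxygen is present and which build up when it is scarce. They are known for turning on a core set of low-oxygen genes that is shared by most cell types of the seedling. The question asked here is what low oxygen still changes in seedlings that make HRE1 mRNA from a promoter that does not depend on oxygen.

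Levels are given as log2(intensity + 1) of single arrays, replicate 1 before replicate 2. Differences are hypoxia minus air on that scale, with the limma SE and n = 2 arrays in each group. Adjusted p-values are from limma with Benjamini-Hochberg adjustment over 13687 probe sets, and an adjusted p under 0.05 is a call. Where a group mean lies under log2 4, the filter level, the fold is counted from that level and written as "at least". Median intensities ran from 32.3 to 35.4 on the 4 arrays. The replicate 1 arrays of 35S::HRE1 and of wild type stood apart in the 5′ signal of an added control transcript (thr), at log2 8.09 to 8.36 against 3.10 to 4.57 on the 8 other arrays. In 35S::HRE1 they are 1 air and 1 hypoxia array, so the difference within replicate 1 and the difference within replicate 2 are each free of that split.

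HRE1 itself was assigned no probe set by the platform table, so the transgene could not be checked by name. One probe set without an assigned gene stood 8.01 above wild type in 35S::HRE1 air, further than any other, and the next stood 2.38 above. This HRE1-line probe set was singled out after its values were seen. It read 14.16 and 14.22 in 35S::HRE1 air. In 35S::HRE1 hypoxia its levels were 14.09 and 14.41, and the difference was 0.06 ± 0.20 (adjusted p = 0.917). In wild type it read 5.97 and 6.39 in air and 10.37 and 10.63 in hypoxia. All 4 arrays of 35S::HRE1 thus lay above all 4 of wild type, and the air and hypoxia arrays of 35S::HRE1 overlapped. The probe set furthest above wild type in 35S::HRE2 air, by 11.14, also has no assigned gene. This HRE2-line probe set rose in 35S::HRE1 from 3.15 and 3.17 to 9.83 and 9.17. Its difference of 6.34 ± 0.20 (adjusted p = 1.36e-07) lay beside 6.17 in wild type, and in 35S::HRE2 it stood above 14 on all 4 arrays.

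Hypoxia changed 1696 of the 13687 probe sets in 35S::HRE1, or 12.4%. Of these, 727 rose (5.31% of all tested) and 969 fell (7.08%). At an unadjusted p under 0.05 the number was 3332. With the 5′ signal split as a block, an alternative chosen after seeing the data, 3194 were called. Rises were fewer than falls but reached further. The median rise was 1.09 and the median fall -1.0. By the plain difference of means, not counted from the filter level, a change reached 2-fold for 409 rises and 487 falls. It reached 8-fold for 64 rises and 9 falls, and 16-fold for 36 rises and 1 fall. AT2G22880 was 21.4-fold in this count and is at least 11.5-fold from the filter level. The 1 fall was that of AT3G01260, given below from the filter level. Probe sets below the filter level bound these sizes: 113 of the rises lay under it on both air arrays and 133 of the falls lay under it on both hypoxia arrays. Bright probe sets, at log2 8 or more on both air arrays, made up 150 of the rises and 328 of the falls. Among the rises were 17 of the 18 probe sets that passed the filter through the 2 hypoxia arrays of 35S::HRE1 alone. Those 18 had to be higher there to be tested. The largest rise belonged to 267024_s_at, a probe set without an assigned gene, which went from 2.88 and 3.28 to 12.48 and 12.25.

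The 2 replicates were compared over all tested probe sets, since a call from 2 against 2 arrays nearly requires the same direction in both. Over all tested probe sets both hypoxia arrays lay above both air arrays for 23.1% and below them for 24.9%. The gap between the 2 replicate differences had a median of 0.17 and a 95th percentile of 0.66 over all tested probe sets. The 2 differences correlated at 0.883 over probe sets, which share their arrays and are no replicates of each other. The count of calls depended on single arrays: it was 1093 without hypoxia replicate 2 and between 1164 and 1221 without each of the 3 others.

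**Figure D1:**
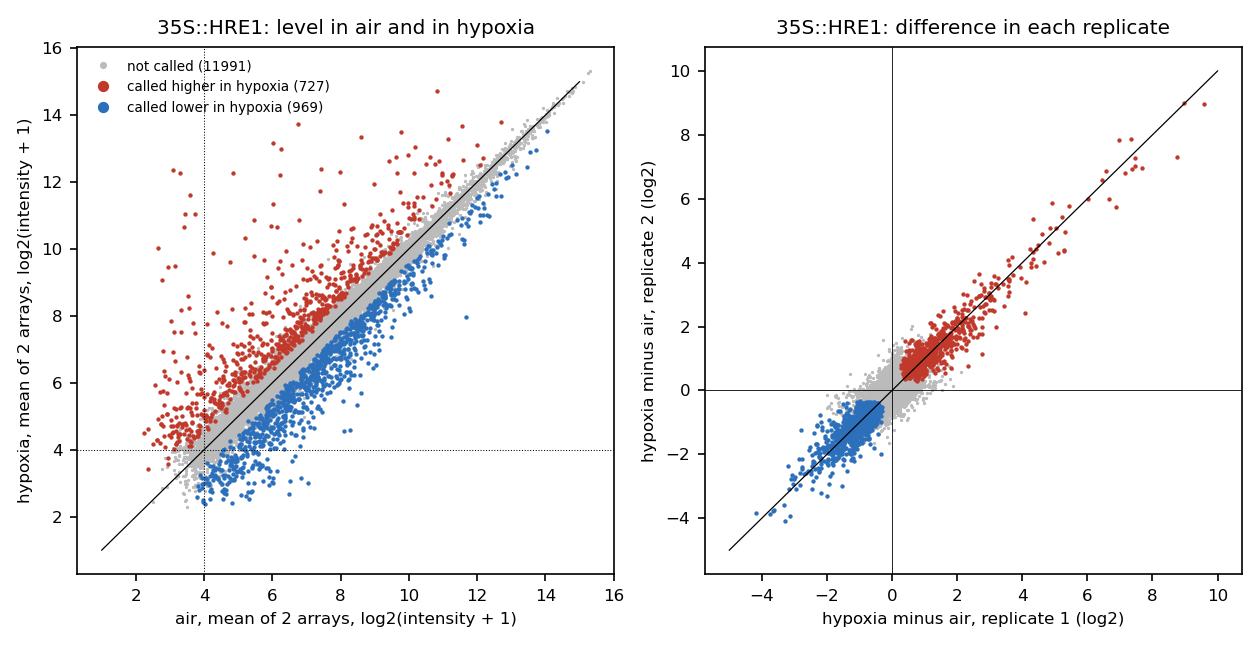
Left, the mean log2(intensity + 1) of each of the 13687 tested probe sets in 35S::HRE1 hypoxia (vertical) against air (horizontal), each a mean of 2 arrays, with dotted lines at the filter level of 4 and a solid line of equal levels. Right, hypoxia minus air on the log2 scale in replicate 2 against replicate 1; the 727 rises (red) and 969 falls (blue) lie in the quadrants where both replicates have the same sign.

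Low-oxygen genes rose together. A list of 53 genes known to respond to low oxygen in most Arabidopsis tissues had 26 members with an assigned probe set, and 25 of them were tested. Of these, 24 rose and none fell, against 5.31% of all tested probe sets called higher. The median difference of the 25 was 4.70, against 0.00 over all tested probe sets. The lowest was 0.44 and the highest 8.98. The 27 members without an assigned probe set, among them the alcohol dehydrogenase ADH1, are not analysed here. Of the 15 largest rises with an assigned gene, 13 belonged to this list.

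Fermentation was measured at 2 genes, PDC2, which is on that list, and the lactate dehydrogenase gene AT4G17260, which is not. PDC2, which encodes the pyruvate decarboxylase that commits pyruvate to ethanol, read 5.75 and 5.19 in air and 10.67 and 11.06 in hypoxia. The hypoxia arrays lay far above the air arrays, and the difference was 5.39 ± 0.26, or 42.0-fold (adjusted p = 1.35e-06). AT4G17260 read 6.25 and 6.11 in air and 9.41 and 9.43 in hypoxia, a rise of 3.24 ± 0.16 or 9.44-fold (adjusted p = 2.07e-06). Both measured fermentation genes thus rose. Sugar breakdown upstream of it gave no call at 3 measured genes: the cytosolic glyceraldehyde-3-phosphate dehydrogenase gene GAPC2 differed by 0.37, the triose phosphate isomerase gene TPI by 0.05, and the phosphofructokinase subunit gene AT1G20950 by 0.08. Their adjusted p-values were 0.10, 0.91 and 0.92.

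AT3G10040, the only tested gene of a list of oxygen sensing, encodes a trihelix factor that dampens the action of group VII factors. It read 3.48 and 3.33 in air and 10.93 and 10.36 in hypoxia, a difference of 7.24 ± 0.25 and at least 100-fold (adjusted p = 1.85e-07). On a list of reactive oxygen and calcium genes 2 of 4 tested members rose, against 5.31% of all tested probe sets called higher. The 2 were CML38 and STZ, while GSTU25 and AT2G21640 differed by 0.06 and 0.32 without a call. CML38, a calmodulin-like calcium sensor found in low-oxygen RNA granules, went from 3.64 and 3.26 to 10.97 and 11.13, at least 132-fold (adjusted p = 3.16e-08). STZ, a zinc finger repressor of stress responses, read 2.78 and 2.63 in air and 5.61 and 5.84 in hypoxia, at least 3.31-fold (adjusted p = 9.58e-07). No hypoxia array of these 3 genes came near an air array. AT3G03270, a universal stress protein linked to the control of hydrogen peroxide under low oxygen, rose by 4.33 ± 0.17, from 7.55 and 7.26 to 11.88 and 11.59. The ethylene pathway genes EIN3 and RTE1 differed by 0.15 and -0.09 (adjusted p = 0.67 and 0.89).

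AT5G10040 had the largest rise with an assigned gene. It read 3.20 and 3.37 in air and 12.18 and 12.35 in hypoxia, a difference of 8.98 ± 0.19 and at least 307-fold (adjusted p = 8.62e-09). The rhodanese-like gene AT2G17850 went from 3.05 and 4.11 to 11.81 and 11.42, at least 189-fold (adjusted p = 7.42e-07). AT4G33560 and AT4G10270 belong to a family named for its response to wounding, and they rose by 7.32 ± 0.20 and 7.14 ± 0.33. AT4G10270 was already well above background in air, at 5.81 and 6.23, and reached 13.17 and 13.16. The kelch repeat gene AT3G27220 rose at least 43.7-fold, and AT4G24110 at least 33.4-fold. Replicates of AT4G24110 were further apart in hypoxia, at 9.62 and 8.49, than in air, at 2.74 and 2.77.

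Several members started from a high level in air. AT1G19530 read 10.27 and 9.70 in air and still rose by 2.81 ± 0.22 (adjusted p = 4.21e-05). AT4G27450, an aluminium-induced family gene, read 11.66 and 11.46 and rose by 2.12 ± 0.18 (adjusted p = 5.47e-05). AT1G26270, a phosphatidylinositol kinase family gene, read 8.72 and 9.05 and rose by 1.79 ± 0.22 (adjusted p = 0.000684). The one tested member without a call was AT3G10020, at 10.02 and 8.95 in air and 10.30 and 9.55 in hypoxia. Its groups overlapped, and its difference of 0.44 ± 0.52 had an adjusted p of 0.691. AT1G74940 rose by 2.17 ± 0.42 (adjusted p = 0.0081), and its call was lost without air replicate 2 (adjusted p = 0.0625) or without hypoxia replicate 1 (adjusted p = 0.0562).

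**Figure D2:**
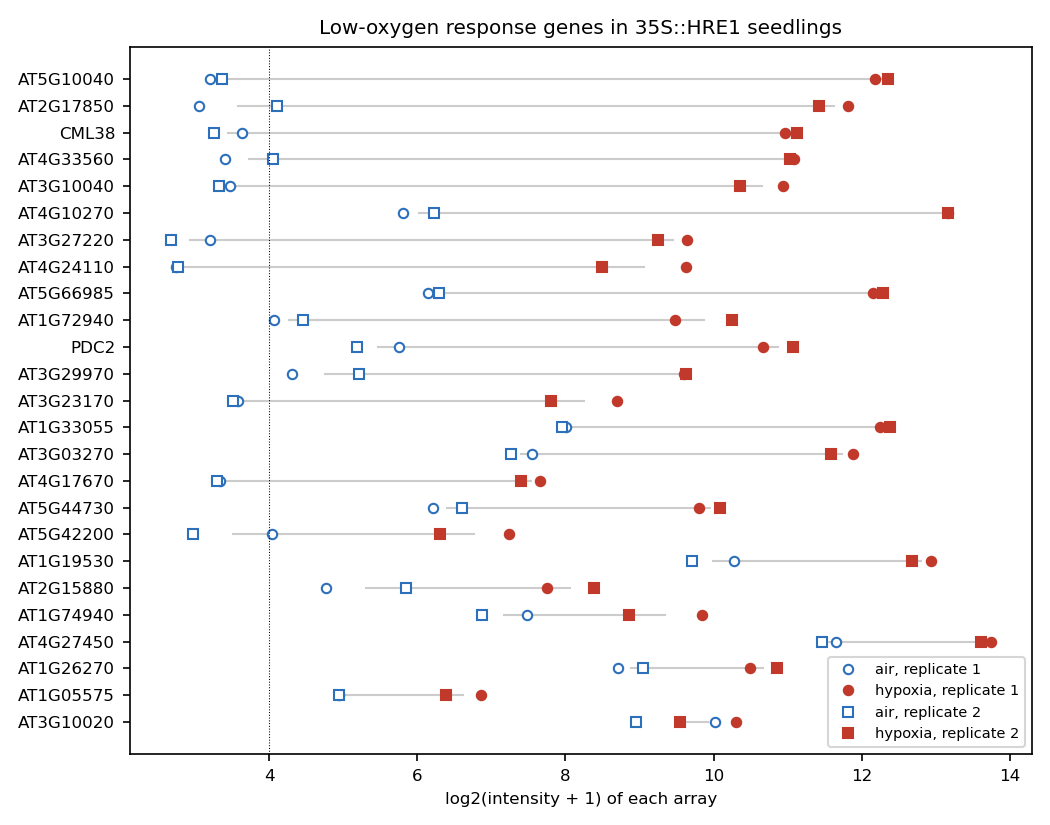
The log2(intensity + 1) of each of the 4 arrays of 35S::HRE1 for the 25 tested low-oxygen genes, ordered by their difference; open symbols are air, filled symbols hypoxia, circles replicate 1 and squares replicate 2, and the dotted line is the filter level of 4. Air and hypoxia arrays are apart for 24 genes and overlap for AT3G10020, the lowest row.

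Other rises fell outside the low-oxygen list. AT4G31020, an alpha/beta-hydrolase gene, read 3.86 and 2.77 in air and 8.18 and 8.15 in hypoxia, at least 17.9-fold (adjusted p = 1.06e-05). FLZ proteins are small zinc finger proteins that bind the energy-sensing kinase SnRK1. Of 10 tested FLZ genes 4 rose and none fell, against 5.31% of all tested probe sets called higher, with a median of 0.40. AT4G17670, the one with the largest rise, also stands on the low-oxygen list and went from 3.33 and 3.30 to 7.66 and 7.40. AT3G22550 went from 3.64 and 4.06 to 6.32 and 6.32, and AT5G47060 from 6.85 and 6.95 to 9.10 and 9.08. The fourth was AT1G74940, given above. The other 6 FLZ genes differed by -0.59 to 0.42, so the family was split between a strongly raised group and a group without a call.

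Prolyl 4-hydroxylases are oxygen-using enzymes that modify cell wall proteins. Of 5 tested genes AT3G28480 rose by 2.80 ± 0.16, from 6.76 and 6.98 to 9.64 and 9.70 (adjusted p = 6.6e-06). AT1G20270 rose by 2.30 ± 0.20, from 4.36 and 4.61 to 6.81 and 6.77 (adjusted p = 6.4e-05). The other 3 had no call, so 2 of 5 were called higher, against 5.31% of all tested probe sets. PUB22, a ubiquitin ligase of immune signalling, rose by 1.42 ± 0.15 (adjusted p = 0.000222), and the related PUB23 differed by 1.10 ± 0.32 (adjusted p = 0.056). Glycosyltransferases of the UGT family gave 5 rises and 3 falls among 26 tested genes, with a median of -0.16, against 5.31% and 7.08% of all tested probe sets. Leaving out 1 array gave 3 to 5 rises and 0 to 3 falls, with no fall called without hypoxia replicate 2 and 1 without air replicate 1. UGT73B4 had the largest difference, from 5.42 and 4.92 to 7.48 and 6.74 (adjusted p = 0.00104).

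Genes that report mitochondrial stress rose in part. Of 6 tested genes 3 were called higher, against 5.31% of all tested probe sets. They were AT2G32020, an acetyltransferase family gene, AT2G41730, and the small heat shock protein gene AT5G51440. AT2G32020 went from 3.79 and 3.92 to 6.64 and 6.34 (adjusted p = 5.47e-05). AT2G41730 went from 5.32 and 5.06 to 8.13 and 7.50 (adjusted p = 0.00164) on a probe set whose name marks possible cross-hybridization. AT5G51440 rose by 1.46 ± 0.35 from 2.86 and 3.11, and its call was lost without any 1 of the 4 arrays, with adjusted p from 0.0543 to 0.139. AT2G21640 differed by 0.32 (adjusted p = 0.41) and the MATE transporter gene AT2G04050 by -0.02 (adjusted p = 0.989). The median of the 6 was 0.95 in 35S::HRE1, 1.76 in wild type and 2.29 in 35S::HRE2. In wild type 5 of the 6 were called higher, and in 35S::HRE2 also 5, against 3.31% and 3.38% of all tested probe sets. The difference between responses was called at 0 of the 6 against wild type. Against 35S::HRE2 it was called at 1, AT2G04050.

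The 15 largest falls with an assigned gene held 3 class III peroxidases, secreted enzymes that use hydrogen peroxide to stiffen or loosen the wall, and 2 expansin family genes. AT3G01260, a galactose mutarotase-like gene, had the largest fall, from 7.33 and 6.74 in air to 3.13 and 2.90 in hypoxia. It fell by 4.02 ± 0.18 (adjusted p = 1.1e-06), which is at least 8.19-fold. The Rossmann-fold gene AT1G64590 went from 6.94 and 6.73 to 3.66 and 2.63, at least 7.15-fold (adjusted p = 3.03e-05). AT5G02540, another Rossmann-fold gene, went from 8.01 and 8.17 to 4.88 and 4.22, or 11.6-fold (adjusted p = 6.75e-05). The hypoxia arrays of all 3 lay more than 1 unit below the air arrays.

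Class III peroxidases were tested at 33 genes, out of 73 members of which 18 had no assigned probe set and 22 stayed below the filter. Of the 33, 14 fell and 3 rose, against 7.08% and 5.31% of all tested probe sets, and their median was -0.64. AT1G30870 had the largest fall, from 8.54 and 8.66 to 5.72 and 5.69, or 7.42-fold (adjusted p = 5.13e-07). AT1G34510 went from 6.26 and 7.34 to 4.09 and 4.12 (adjusted p = 0.00286), and AT3G49960 from 7.22 and 6.57 to 4.36 and 4.43 (adjusted p = 4.98e-05). Bright members fell as well: AT5G17820 went from 10.51 and 10.33 to 9.16 and 8.92, and AT4G30170 from 9.88 and 10.13 to 8.08 and 8.42. The 3 that rose were Prx37, AT5G39580 and AT4G31760. Prx37, which is expressed along vascular bundles, went from 6.27 and 6.40 to 8.61 and 8.42, or 4.54-fold (adjusted p = 3.37e-05). The falls numbered 11 without air replicate 1 or without hypoxia replicate 2.

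Expansins loosen cell walls during growth. Of 12 tested expansin genes 6 fell and 1 rose, against 7.08% and 5.31% of all tested probe sets, and the median was -0.91. EXLA2, an expansin-like gene, went from 7.23 and 7.20 to 4.73 and 4.58, or 5.91-fold (adjusted p = 0.000135). EXLA1 went from 9.06 and 9.17 to 7.58 and 7.50, or 2.98-fold (adjusted p = 4.38e-05). EXPA8 rose by 0.61 ± 0.15, from 9.42 and 9.18 to 10.03 and 9.79 (adjusted p = 0.025), and this call was lost without air replicate 2 or hypoxia replicate 1. EXPA9 fell by 1.39 ± 0.37 (adjusted p = 0.0405), and this call was lost without 3 of the 4 arrays. Without air replicate 1 its difference was -0.91. EXPA16 fell by 1.44 ± 0.27, and without air replicate 1 its adjusted p was 0.0504. The falls numbered 4 without air replicate 1. Among 5 xyloglucan hydrolases, enzymes that cut and rejoin wall xyloglucan, XTH16 went from 7.57 and 7.37 to 5.30 and 4.95, and XTH19 from 10.81 and 10.80 to 9.97 and 9.80.

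Root hair markers were tested at 3 of 9 listed genes, and all 3 fell, against 7.08% of all tested probe sets called lower. EXPA7, an expansin of root hair cells, went from 4.97 and 4.17 to 2.58 and 2.84 (adjusted p = 0.00494), and EXPA18, its close relative, from 6.23 and 5.64 to 3.64 and 3.12 (adjusted p = 0.0019). The endoglucanase gene GH9C1 went from 6.14 and 5.64 to 3.31 and 3.07, at least 3.71-fold (adjusted p = 0.000125). All hypoxia values of the 3 genes were under the filter level. In whole seedlings fewer cells of a type and less RNA per cell cannot be told apart. PYK10, an abundant root beta-glucosidase, fell by 0.65 ± 0.13 from 13.60 and 13.47, and the call was lost without air replicate 1 (adjusted p = 0.0684) or hypoxia replicate 2 (adjusted p = 0.088). The green tissue marker RCA, which activates Rubisco, differed by -0.02 ± 0.36, at 14.20 and 13.58 in air and 14.17 and 13.57 in hypoxia. Its replicate 1 arrays were higher than its replicate 2 arrays in both atmospheres.

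Further gene groups fell in part. Beta-glucosidases gave 4 falls and 1 rise among 9 genes, against 7.08% and 5.31% of all tested probe sets, with BGLU45 and BGLU46, which act on lignin precursors, at -1.42 and -1.49 (adjusted p = 0.00187 and 0.000416). CC-type glutaredoxins, plant thiol enzymes, gave 2 falls among 11 genes, against the same 7.08% called lower, with a median of -0.67. Leaving out 1 array gave 1 to 3 falls, and the call of AT4G15680 was lost without 3 of the 4 arrays. AT1G06830 had the largest fall of that family, from 5.84 and 5.94 to 3.38 and 3.56, at least 3.7-fold (adjusted p = 3.36e-05). Methionine sulfoxide reductases, which repair oxidized protein, fell at 3 of 5 genes of the MSRB class, against the same 7.08%. MSRB5 was at -0.96 ± 0.12, and 1 to 3 of the class fell without 1 array. Tubulins split: TUA1 rose by 1.24 ± 0.14 (adjusted p = 0.000418), from 8.03 and 8.14 to 9.34 and 9.31, while TUB1 fell by 0.97 ± 0.13 (adjusted p = 0.00128) and TUB7 fell by 0.73 ± 0.12 (adjusted p = 0.00432). MSRB6, MSRB9 and TUB5 had calls that were lost without at least 1 array. The GDSL lipase gene AT5G55050 went from 6.95 and 6.38 to 3.96 and 3.67, at least 6.34-fold (adjusted p = 7.4e-05).

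Single members stood out in other groups. The auxin-conjugating enzyme gene GH3.3 rose by 1.08 ± 0.22 and the auxin repressor gene IAA29 fell by 1.11 ± 0.23, and each call was lost without 2 of the 4 arrays. Serine carboxypeptidase-like genes gave 4 falls and no rise among 15, against 7.08% of all tested probe sets called lower, and 2 falls without air replicate 2 or hypoxia replicate 2. The call of SCPL27 was kept without each array, with levels going from 6.28 and 6.36 to 4.86 and 5.11 (adjusted p = 0.000431). Cytochrome P450 genes gave 3 falls among 10 and glutathione S-transferase genes 2 among 9, beside the same 7.08%, with medians of -0.05 and -0.38. Leaving out 1 array gave 2 to 3 falls and 1 to 3 falls, and the calls of CYP71B28 and GSTU26 were lost without 3 and 2 of the 4 arrays. Tetraspanins, membrane proteins that organise signalling patches, gave 2 rises and 1 fall among 7, beside 5.31% and 7.08% of all tested probe sets. TET10 and TET8 lost their calls without 3 and 2 of the 4 arrays, which left TET2 alone without air replicate 2 or hypoxia replicate 2. TET2 rose by 1.43 ± 0.13, from 6.61 and 6.59 to 8.09 and 7.96 (adjusted p = 8.25e-05). The linker histone gene HIS1-3, known for its induction by drought, fell by 1.03 ± 0.15, from 6.08 and 6.10 to 5.12 and 5.01 (adjusted p = 0.00166). PYE, a bHLH factor of the iron deficiency response, rose by 1.06 ± 0.18, and both hypoxia arrays, at 5.35 and 5.63, lay above both air arrays (adjusted p = 0.00452).

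Chloroplast-encoded genes gave no call. Limma called none of the 69 tested probe sets of the plastid genome, none of them had an unadjusted p under 0.05, and their median difference was 0.04 with a range from -0.51 to 0.54. The 2 reference genes PEX4 and AT2G28390 differed by -0.02 and -0.03.

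**Figure D3:**
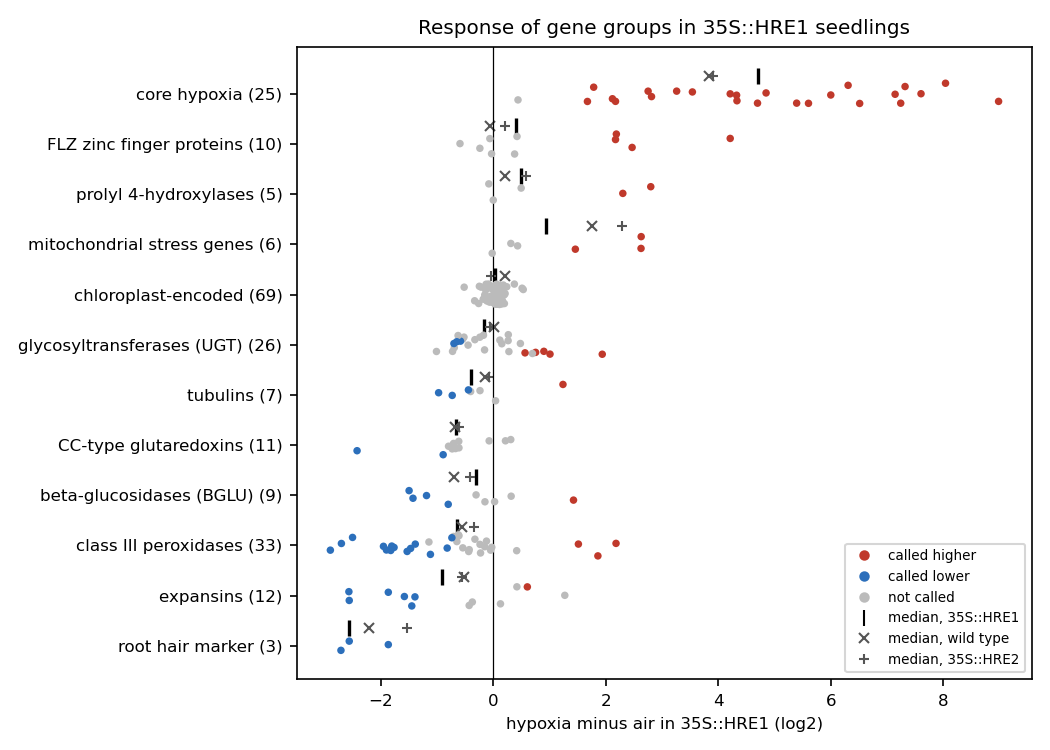
Hypoxia minus air in 35S::HRE1 on the log2 scale for the tested members of 12 gene groups, with the number tested in brackets; red points are called higher, blue called lower and grey not called, and vertical position within a row is only spread for display. Bars mark the group median in 35S::HRE1, crosses that in wild type and plus signs that in 35S::HRE2; the low-oxygen list has its median at 4.70, 3.83 and 3.90 in that order.

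The response of 35S::HRE1 was then set against that of wild type, by testing the difference between the 2 responses in the same fit. Limma called 11 of 13687 probe sets (0.0804%), 7 with the higher response in 35S::HRE1 (0.0511%) and 4 with the lower (0.0292%), and 762 had an unadjusted p under 0.05. The HRE1-line probe set was one of the 4. With the 5′ signal split as a block, 82 probe sets were called, 40 higher and 42 lower. None of the 25 tested low-oxygen genes was called without a block or with a replicate block over all 12 arrays. With the 5′ signal block AT4G33560 and AT5G66985 were called higher. A replicate block over the 8 arrays of wild type and 35S::HRE1 gave 79 calls in all and called AT4G33560 higher. Across the 25 genes the response was above that of wild type in 22, with a median excess of 0.65, and the hypoxia level was above that of wild type in 24. Their air levels were above those of wild type in 12 of 25, with a median difference of -0.04. AT4G33560 had the difference 7.32 ± 0.20 in 35S::HRE1 and 5.59 in wild type, and AT1G72940, a TIR-domain gene, 5.60 ± 0.39 and 3.83.

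AT5G01700, a protein phosphatase 2C gene, read 3.08 and 3.11 in 35S::HRE1 air and 4.35 and 4.72 in hypoxia. In wild type it read 3.05 and 3.10 in air and 3.09 and 3.10 in hypoxia, and on the 4 arrays of 35S::HRE2 it stayed between 3.05 and 3.10. It passed the filter through the 2 hypoxia arrays of 35S::HRE1 alone, and so had to be higher there to be tested. The same holds for AT4G30680 and AT5G48350 and for 18 probe sets in all, of which 4 are among the 7 calls above wild type and 8 among the 20 above 35S::HRE2, so these calls are given as a description. The difference between the responses was 1.42 ± 0.19 (adjusted p = 0.049), at 1.22 within replicate 1 and 1.61 within replicate 2. AT4G30680, which encodes an MA3-domain protein related to translation initiation factors, read 3.12 and 3.22 in 35S::HRE1 air and 5.06 and 4.90 in hypoxia, and in wild type it reached 3.33 and 3.62 in hypoxia. AT2G22880, a VQ-motif gene, rose in both genotypes, to 7.50 and 7.56 in 35S::HRE1 and to 5.74 and 6.16 in wild type, from about the same air level near 3.1.

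Responses below those of wild type were called at 3 named genes. The GDSL lipase gene AT5G45950 fell from 8.57 and 8.63 to 6.93 and 6.57 in 35S::HRE1, and in wild type it read 8.44 and 8.29 in air and 8.14 and 8.23 in hypoxia. AT1G47400, which encodes a small peptide of the iron deficiency response, read 4.80 and 5.02 in 35S::HRE1 air and 4.66 and 4.63 in hypoxia, while in wild type it rose from 4.04 and 3.62 to 5.58 and 5.51. AT1G10585, a bHLH factor gene, stayed between 2.83 and 2.97 on all 4 arrays of 35S::HRE1 and reached 4.23 and 4.20 in wild type hypoxia. It passed the filter through those 2 arrays of wild type alone and had to be higher there to be tested, so its call is a description. Of the 7 probe sets named from this comparison, the HRE1-line probe set alone kept its call when each array was left out in turn. The others lost it without 7 or 8 of the 8 arrays, and the count of calls was 1 to 6 without 1 array.

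Against 35S::HRE2 the difference between the responses was called at 40 probe sets (0.292%), 20 in each direction (0.146% each), and 929 had an unadjusted p under 0.05. The largest excess in 35S::HRE1 after the HRE2-line probe set was that of AT4G30380. This barwin-related endoglucanase gene read 2.84 and 3.20 in 35S::HRE1 air and 8.12 and 7.57 in hypoxia, against 5.12 and 5.07 in 35S::HRE2 hypoxia. The chitinase family gene AT3G47540 rose to 6.04 and 6.06 in 35S::HRE1 and read 3.82 and 3.84 in 35S::HRE2 hypoxia. AT2G04050, the MATE transporter gene, moved the other way: it read 6.07 and 6.59 in 35S::HRE1 air and 6.45 and 6.18 in hypoxia, and in 35S::HRE2 it rose from 4.73 and 3.75 to 7.22 and 7.07. The call of AT4G30380 was lost without any 1 of the 8 arrays and those of AT3G47540 and AT2G04050 without 7 of them, and the count of calls was 5 to 9 without 1 array. With the 5′ signal block it was 162.

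**Figure D4:**
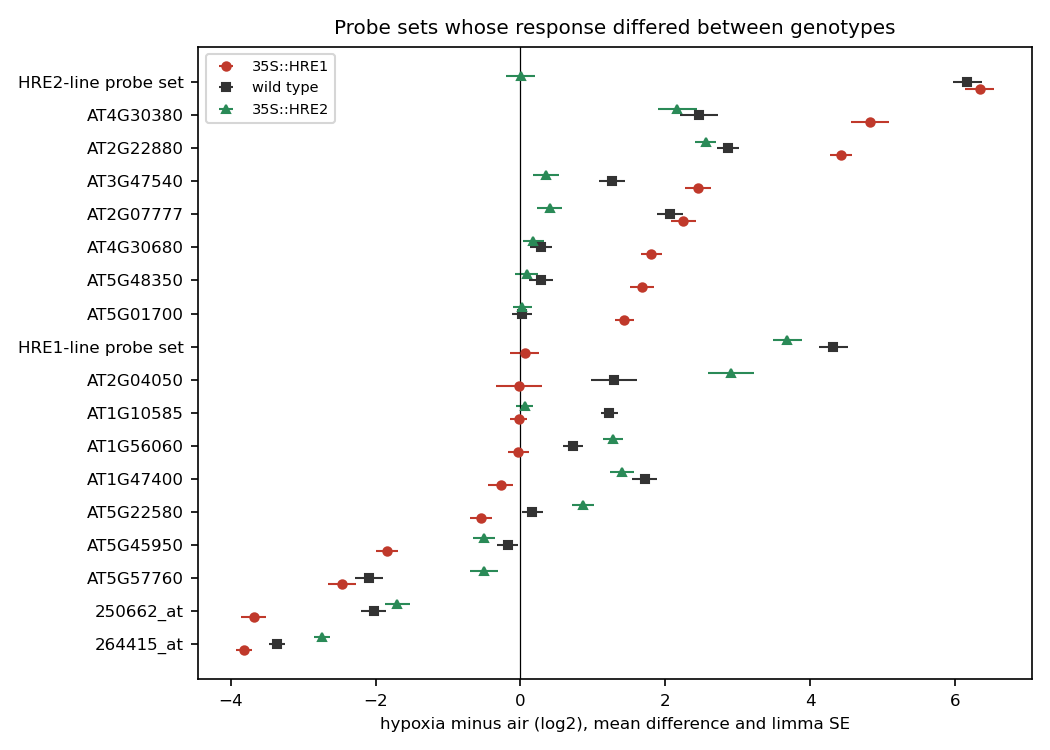
Hypoxia minus air on the log2 scale, with limma SE, in 35S::HRE1 (circles), wild type (squares) and 35S::HRE2 (triangles) for 18 named probe sets whose response in 35S::HRE1 differed from that in at least 1 other genotype. AT5G01700, AT4G30680 and AT5G48350 lie away from 0 in 35S::HRE1 and within 0.3 of it in the others, and each was tested only because its 2 hypoxia arrays of 35S::HRE1 passed the filter. The HRE1-line probe set lies near 0 in 35S::HRE1 and above 3 in the others.

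The size of the whole response was compared on probe sets chosen by their call in the genotype left out of the comparison. The spread behind these calls and the filter drew on all 12 arrays, so the choice was not independent of the genotypes compared. On the 490 probe sets (3.58%) that fell in 35S::HRE2, the fall was larger in 35S::HRE1 than in wild type for 71.8%, with medians of -1.13 and -0.88. Within replicate 1 the share was 71.8% and within replicate 2 it was 66.9%. The air levels of these probe sets were higher in 35S::HRE1 than in wild type by a median of 0.12, and the hypoxia levels were lower by a median difference of -0.08. On the 463 (3.38%) that rose in 35S::HRE2, the rise was larger in 35S::HRE1 for 60.7%, with medians of 1.23 and 1.18. Probe sets chosen by wild type gave like shares against 35S::HRE2, 70.5% of 448 falls (3.27% of all tested) and 63.1% of 453 rises (3.31%). In either direction, limma called the difference between 35S::HRE1 and wild type at 0 of the 490 falls and 6 of the 463 rises. Over all tested probe sets 0.0804% were called. The 6 included the HRE1-line probe set and AT1G47400, with lower responses in 35S::HRE1 than in wild type, and AT2G22880, with a higher one. An unadjusted p under 0.05 was reached by 113 of the falls and 131 of the rises, also in either direction. Probe sets share arrays and are not independent, so these shares are given without a test.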

How the data were processed

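Total RNA of whole seedlings was hybridized to Affymetrix ATH1 arrays. The deposited values are linear intensities made with GCRMA, per the submitters' processing notes; this method subtracts background and normalizes the arrays together, with settings not given in the sources used here. Arrays were grouped by title. For 1 wild-type air array a tag names 35S::HRE2, and its level of 3.23 on the HRE2-line probe set lies beside 3.39 on the other wild-type air array. The HRE1-line probe set is 260451_at and the HRE2-line probe set 245173_at.

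On log2(intensity + 1), limma 3.58.1 in R 4.3.3 (lmFit, eBayes) fitted the 6 groups in 1 model with 6 residual and 3.25 prior degrees of freedom, and tests are two-sided. The fit was tested on simulated data. A platform table named 1 gene for 7341 tested probe sets, several for 292 and none for 6054. RefSeq gave locus names and neighbours. Sequences were not analysed here.

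Members and gene lists were chosen with earlier results of these data known. There were 32 lists by locus, 7 of them with no tested member, and 28 families by symbol. Of the 32 lists, 5 were added after values were seen, namely whole families and the chosen set of mitochondrial stress genes. Named were the 15 largest rises and falls with a gene and the same direction in both replicates, and all measured low-oxygen genes. Also named were up to 6 called members of other lists, the largest differences between genotypes and the 5 largest rises and falls without a gene. Then came 4 calls with unlike replicates, rises from below the filter and the HRE1-line and HRE2-line probe sets. Others named were chosen after their values were seen. Alternatives were a replicate block, other filters, offsets and variance models, centring, fewer arrays, 1 probe set per gene, a minimum change and leaving out each array.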

Additional observations from a re-analysis of the deposited data

Results flagged for a closer look

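The difference between the hypoxia response of 35S::HRE1 and that of wild type was called by limma at 11 probe sets. Beside the HRE1-line probe set, at -4.26 (adjusted p = 0.00108), the named ones were AT1G47400 at -1.99, AT5G45950 at -1.67, AT1G10585 at -1.25, AT2G22880 at 1.56, AT4G30680 at 1.52 and AT5G01700 at 1.42, all log2 differences of responses with adjusted p from 0.049 to 0.05. Each had the same sign within replicate 1 and within replicate 2, for example -1.34 and -1.99 for AT5G45950 and 1.75 and 1.36 for AT2G22880.

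Against 35S::HRE2 limma called 40. The named ones with the larger value in 35S::HRE1 were the HRE2-line probe set at 6.33, AT4G30380 at 2.66, AT3G47540 at 2.09, AT2G22880 at 1.87, AT2G07777 at 1.85, AT4G30680 at 1.63, AT5G48350 at 1.59 and AT5G01700 at 1.41. Those with the smaller value were the HRE1-line probe set at -3.62, AT2G04050 at -2.92, 250662_at at -1.98, AT5G57760 at -1.96, AT1G47400 at -1.68, AT5G22580 at -1.41, AT5G45950 at -1.34, AT1G56060 at -1.31 and 264415_at at -1.07. A group mean under the filter level makes the size of such a difference uncertain. Among others, this holds in 35S::HRE1 air for AT5G01700, AT4G30680, AT2G22880, AT4G30380, AT3G47540, AT2G07777, AT5G48350 and the HRE2-line probe set. In 35S::HRE1 hypoxia it holds for AT5G57760, and in both atmospheres for AT1G56060 and AT1G10585. AT5G01700, AT4G30680 and AT5G48350 passed the filter through the hypoxia arrays of 35S::HRE1 alone, and AT1G10585 through those of wild type alone. The cause of each difference was not tested.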

How the results depend on the processing

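The labels do not say that equal replicate numbers were handled together, and each group has 2 arrays, so the numbers do not pair the samples by design; deviations of same-numbered arrays correlated at 0.67 to 0.75 among the groups of 35S::HRE1 and wild type, whose replicate 1 arrays stand apart in 5′ signal, and at -0.58 to -0.24 between these and the 35S::HRE2 groups. With a replicate block over 12 arrays the 35S::HRE1 response had 1912 calls, over 8 arrays 3697 and over 4 arrays 3165, against 1696. With the arrays apart in 5′ signal as a block, an alternative chosen after seeing the data, the count was 3194. It was 755 on the 4 arrays of the comparison only, 231 at a minimum change of 2-fold (154 rises and 77 falls) and 806 with 1 probe set per gene, where fewer were tested. Leaving out 1 array gave 1093 to 1221. At the minimum change, 6 peroxidases and 2 expansins fell.

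The difference from the wild-type response was called at 79 probe sets with the replicate block over 8 arrays and 82 with the 5′ signal block. It was called at 2 after centring, at 4 with log2(intensity + 16), and at 1 each on its own arrays, with the filter at log2 6, with trend and robust variances and at the minimum change. Leaving out 1 array gave 1 to 6. Against 35S::HRE2 the counts were 162 with the 5′ signal block, 9 on its own arrays, 26 with the filter at log2 6, 5 at the minimum change, and 5 to 9 without 1 array. The cause of these shifts was not tested. No named call changed sign in any alternative run, while differences near 0 without a call did. Of the 131 named calls of the 35S::HRE1 response, 96 were kept without each array and 35 were lost without at least 1. Low signal over background limits the size of changes under log2 4.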

Other observations

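Neighbouring genes of the RefSeq annotation were read side by side in the 35S::HRE1 response. Of 2166 adjacent pairs with both genes tested, both were called in 46, with 17 pairs rising together, 19 falling together and 10 moving in opposite directions. Over all tested genes, with 1 probe set each, 5.19% were called higher and 6.41% lower. Whether neighbours were called together more often than other genes was not tested. The pair with the largest opposite values was AT4G10270, which rose by 7.14, and the cupin gene AT4G10280, which fell by 2.67 from 5.83 and 5.63 to 3.11 and 3.01. Among paralogs, UGT71C5 rose by 0.57 while its neighbour UGT71C4 fell by 0.70, and the neighbours JAL33 and JAL34, jacalin lectin genes, fell by 1.06 and by 0.72. Cross-hybridization between such neighbours was not tested.

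Probe sets without an assigned gene made up 816 of the 1696 calls. Besides 267024_s_at the largest rises among them were 252746_at at 7.42, 247431_at at 7.37, 253416_at at 6.98 and 249384_at at 6.72, and the largest falls were 264415_at at -3.81, 250662_at at -3.68, 247871_at at -3.45, 245325_at at -3.13 and 248208_at at -3.02.

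The called probe sets with the least similar replicates included AT2G17850, with differences of 8.76 and 7.31, AT3G29760, with -0.56 and -1.79, AT1G72920, with 2.34 and 0.77, and AT3G56230, with -0.35 and -1.99. The last 3 lost their call without at least 1 array.

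The glyoxylate cycle gene ICL, which encodes isocitrate lyase, differed by 0.61 in 35S::HRE1 (adjusted p = 0.36) and by 1.93 in wild type and 2.49 in 35S::HRE2. The protease gene CP1 differed by -0.51, 1.95 and -0.02 in the same order, without a call in 35S::HRE1. At neither gene was the difference between responses called, against wild type or against 35S::HRE2.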
